A study of Mus musculus with 4 samples.

Results

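Pericytes and vascular smooth muscle cells, together called mural cells, wrap around the endothelial tube of blood vessels. Pericytes sit singly on capillaries and postcapillary venules, within the same basement membrane as the endothelium, and smooth muscle cells form the contractile layer of arteries, arterioles and larger veins. The 2 kinds share part of their genes and are told apart by which markers they combine. The genes described here are 10 such markers of the 46517 genes counted in dermal blood vascular endothelial cell (BEC) plates of the mouse ear. The members were chosen by name as established markers, after their levels in these wells had been seen, so their levels and joint patterns are given as a description. *Pdgfrb*, *Kcnj8*, *Abcc9* and *Rgs5* are treated as the pericyte genes, *Acta2*, *Myh11* and *Tagln* as the smooth muscle genes, and *Cspg4*, *Notch3* and *Des* as genes of both. All 10 were read on each of the 4 plates.

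Cells were taken from the ear dermis of wild-type female C57BL/6J mice, without treatment, and sorted as CD31+/CD45-/Lyve1-, which selects blood endothelial cells and should leave mural cells out. The design text speaks of a pool of 6 mice and does not settle whether each replicate had its own, and the labels give an age of 12 to 26 weeks, a range that differs from the one in the methods. Single cells were processed by Smart-seq2, a plate method that reads along the whole transcript without molecular identifiers, in 4 plates of 384 wells that form 2 replicates of plates A and B. All 1536 wells held at least 600 gene reads, the lower limit used here, and the lowest well held 1143.

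The replicates stood apart in depth and in content. In the order of plates 1A, 1B, 2A and 2B used throughout, where the digit is the replicate, median gene reads per well were 182926, 142086, 42539.5 and 40324, and the median number of gene reads per spike-in read was 389, 378, 27.0 and 19.1. *Pecam1*, which encodes CD31, was read in 98.7% to 100% of wells, whereas *Ptprc*, which encodes CD45, was read in 0.781% to 1.30%. *Lyve1*, a lymphatic endothelial marker that the sort was meant to deplete, was read in 8.33%, 1.56%, 38.0% and 60.4%. Shares of wells with a read are therefore also given after each well of at least 20000 reads was thinned to 20000, which kept 379, 379, 231 and 239 wells. Levels are in CPM, the reads of a gene scaled to 1000000 gene reads per well, and intervals are exact 95% binomial intervals that cover counting error only.

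Of the pericyte genes, all 4 were read in most wells of replicate 1 and only *Rgs5* in most wells of replicate 2. *Rgs5*, a regulator of G protein signalling that is among the most abundant pericyte transcripts, had mean levels of 2559, 2313, 689 and 520 CPM. It was read in 100%, 100%, 62.8% and 71.1% of wells. *Kcnj8*, the pore subunit of an ATP-sensitive potassium channel, averaged 935, 816, 121 and 98.0 CPM. Both plates of replicate 1 lay above both plates of replicate 2 for either gene.

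*Abcc9*, the sulfonylurea receptor subunit that assembles with the *Kcnj8* product, averaged 377, 308, 74.9 and 83.4 CPM. *Pdgfrb*, the receptor through which endothelial PDGF-B recruits mural cells, averaged 552, 484, 128 and 90.5 CPM and was read in 98.2%, 93.2%, 23.2% and 29.2% of wells. Thinning left *Pdgfrb* in 68.3%, 62.8%, 16.9% and 18.4% of wells, *Kcnj8* in 76.2%, 71.0%, 15.2% and 11.3%, and *Rgs5* in 95%, 93.1%, 34.6% and 40.2%. At equal depth both plates of replicate 1 thus still lay above both of replicate 2 for these 3 genes.

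Of the genes of both mural kinds, *Notch3*, a Notch receptor of mural cells, averaged 216, 201, 77.6 and 65.6 CPM, and *Des*, which encodes the intermediate filament desmin, averaged 226, 220, 102 and 95.8 CPM. *Cspg4*, which encodes the NG2 proteoglycan, averaged 33.5, 28.9, 2.81 and 18 CPM and was read in 28.4%, 21.9%, 1.56% and 8.07% of wells. *Cspg4* was the rarest of the 10 genes on every plate, and its plates of replicate 2 differed by a larger ratio than those of any other member.

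Among the smooth muscle genes, *Acta2*, which encodes the alpha actin of smooth muscle, averaged 480, 542, 250 and 237 CPM and was read in 97.1%, 95.3%, 39.6% and 50.5% of wells. *Tagln*, which encodes the actin-binding protein transgelin, averaged 239, 259, 165 and 127 CPM. *Myh11*, the smooth muscle myosin heavy chain, averaged 87.7, 73.2, 135 and 42.6 CPM, so that the plates of replicate 1 lay between those of replicate 2. A single well of plate 2A held 18430 CPM of *Myh11*. *Cnn1*, the calponin of differentiated smooth muscle and a gene of the wider smooth muscle list, was nearly absent, with 2, 0, 8 and 0 reads on the 4 plates.

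**Figure D1:**
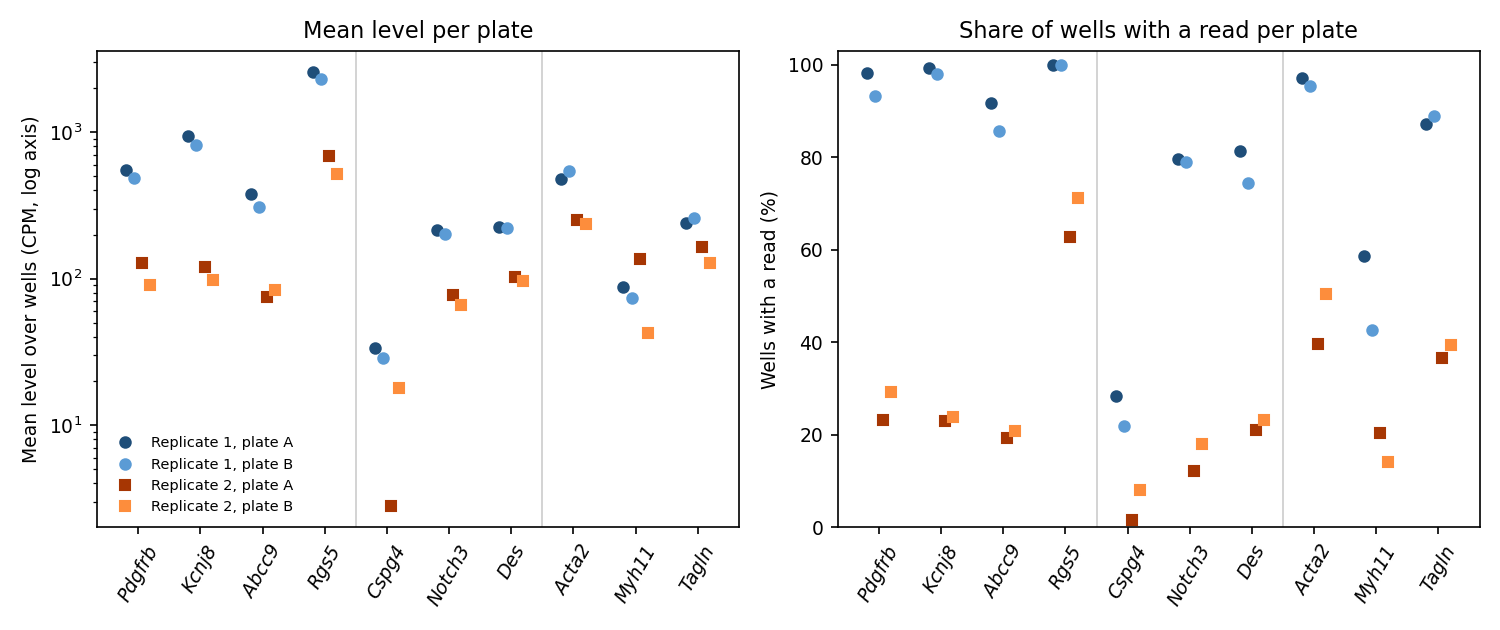
Mean level over all wells (CPM, log axis, left) and share of wells with at least 1 read (percent, right) of the 10 genes, each point 1 plate of 384 wells; circles are replicate 1 and squares replicate 2. Both plates of replicate 1 lie above both of replicate 2 for all genes but *Myh11* in the mean level, from 2559 CPM of *Rgs5* on plate 1A to 2.81 CPM of *Cspg4* on plate 2A.

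Per kilobase of exon, the only scale on which genes were compared with each other, the mean levels in replicate 1 ran from *Rgs5* at 536 CPM per kb through *Kcnj8* at 344, *Acta2* at 233, *Tagln* at 125, *Pdgfrb* at 94.6, *Des* at 59.4, *Abcc9* at 40.9, *Notch3* at 25.7 and *Myh11* at 10.6 to *Cspg4* at 2.61. In that order the plates of no neighbouring pair overlapped. In replicate 2 the order was *Rgs5* at 133, *Acta2* at 111, *Tagln* at 73.6, *Kcnj8* at 42.9, *Des* at 26.4, *Pdgfrb* at 20.0, *Myh11* at 11.7, *Abcc9* at 9.45, *Notch3* at 8.85 and *Cspg4* at 0.87. There *Myh11*, at 17.8 and 5.61 CPM per kb by plate, overlapped *Pdgfrb*, *Abcc9* and *Notch3*, and *Abcc9* overlapped *Notch3*, whereas the other neighbours kept apart. *Acta2* and *Tagln* thus ranked above *Kcnj8* in replicate 2 and below it in replicate 1. Reads per kilobase of a full-length method still depend on coverage along the transcript.

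*Kcnj8* and *Abcc9* are neighbours on the minus strand of chromosome 6 (GRCm38 142564837 to 142571614 and 142587862 to 142702315), separated by 16247 bp, and encode the 2 subunits of one channel. *Acta2* lies on chromosome 19 (34241090 to 34255590, minus strand). The RefSeq sequence around the start of these 3 genes (GRCm38.p6, 250 bases before and 50 after the start) is shown because they were the members whose window held the letters TGGGAA, the core bound by the Notch effector RBPJ, which are set in capitals. The regions, all read on the minus strand, are chr6:142571565-142571864 for *Kcnj8*, chr6:142702225-142702524 for *Abcc9* and chr19:34255324-34255623 for *Acta2*.
Kcnj8: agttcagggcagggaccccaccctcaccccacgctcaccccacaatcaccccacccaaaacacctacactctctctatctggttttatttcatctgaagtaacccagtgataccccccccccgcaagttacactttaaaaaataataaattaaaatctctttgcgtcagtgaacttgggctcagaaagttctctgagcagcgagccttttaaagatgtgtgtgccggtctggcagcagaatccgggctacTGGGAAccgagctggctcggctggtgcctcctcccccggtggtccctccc
Abcc9: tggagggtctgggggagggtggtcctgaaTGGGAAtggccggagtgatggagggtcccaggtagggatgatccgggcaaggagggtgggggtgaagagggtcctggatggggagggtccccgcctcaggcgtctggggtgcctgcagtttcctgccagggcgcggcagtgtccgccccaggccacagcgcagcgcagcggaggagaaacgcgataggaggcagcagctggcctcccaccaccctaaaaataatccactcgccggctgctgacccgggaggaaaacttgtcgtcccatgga
Acta2: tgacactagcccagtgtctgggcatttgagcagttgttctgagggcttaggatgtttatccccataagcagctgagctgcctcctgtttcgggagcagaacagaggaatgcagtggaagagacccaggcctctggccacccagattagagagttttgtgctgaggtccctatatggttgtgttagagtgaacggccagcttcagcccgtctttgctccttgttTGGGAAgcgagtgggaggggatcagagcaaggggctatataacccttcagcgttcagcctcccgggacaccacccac
The core stood at the start of *Kcnj8*, 221 bases before that of *Abcc9* and 27 bases before that of *Acta2*. Both strands were searched, so that TTCCCA counted as well. Of the 10 members 7 had such a window, and 3 of these 7 held the core, against 28.3% of 27025 genes with a window. *Pdgfrb*, *Myh11* and *Tagln* were without one. The CArG box, the element bound by serum response factor in many smooth muscle genes, was searched as the strict consensus with no substitution allowed, so that a near match was not counted. In this form it was in 0 of the 7 windows and in 1.81% of all genes with a window, and no match says only that these letters were not in the window. The same search found the core in 7 of 12 other pericyte genes and 7 of 22 other smooth muscle genes, and the CArG box in 0 and 3 of these. These matches describe letters in a window, and the motifs were picked after the levels were known.

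The replicates were compared by the mean CPM of their plates, with 1 pool or part of a pool behind each, so that no test between them was possible. Both plates of replicate 1 exceeded both of replicate 2 for 9 of the 10 members, where 42.2% of 16351 genes with a mean of at least 1 CPM did so. A difference of at least 2 times with plates apart was seen for 8 members, against 20.5% of genes. The median log2 ratio of replicate 1 to replicate 2 was 1.56 over the members and 0.30 over all genes. *Kcnj8* had a log2 ratio of 3.0, *Pdgfrb* of 2.24, *Abcc9* of 2.11 and *Rgs5* of 2.01, against 1.59 for *Cspg4*, 1.54 for *Notch3*, 1.17 for *Des*, 1.07 for *Acta2*, 0.77 for *Tagln* and -0.15 for *Myh11*. Over all wells the 4 pericyte genes therefore had larger ratios than any of the other 6, an order that did not hold in endothelial wells or without the 20 highest wells per plate, where *Cspg4* had 3.88 and 5.56 and *Abcc9* had 3.33 and 4.83.

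The wider pericyte list again had a larger ratio than the wider smooth muscle list. Of 20 other pericyte genes, 13 had both plates of replicate 1 above and 1 below, with a median log2 ratio of 1.47. Of 24 other smooth muscle genes that passed the level limit, 12 were above and 2 below, with a median of 0.48. The latter list lay near all genes, of which 42.2% were above, with a median of 0.30. Other gene groups differed too: 14 of 15 endothelial genes were above (median 0.78), 7 of 7 capillary genes were above (median 2.64) and 6 of 6 lymphatic genes were below (median -3.54). Less one-sided were 9 artery genes, with 4 above and 1 below, 8 vein genes, with 2 and 2, and 8 fibroblast genes, with 3 and 3. The part of these groups in the members' difference was not tested. In wells with at least 1000 CPM of *Pecam1*, *Cdh5* and *Kdr* together, where this endothelial sum had a log2 ratio of 0.03, the ratios were 4.24 for *Kcnj8*, 4.21 for *Pdgfrb*, 3.88 for *Cspg4*, 3.80 for *Rgs5*, 3.72 for *Notch3*, 3.33 for *Abcc9*, 2.47 for *Acta2*, 2.26 for *Des*, 2.13 for *Myh11* and 0.59 for *Tagln*. Among endothelial wells the difference was thus larger than over all wells for each member except *Tagln*. The choice of wells itself bears on this. Of wells with at least 20000 reads and 1000 CPM of the pericyte genes, the endothelial limit kept 427 of 457 in replicate 1 and 14 of 60 in replicate 2. It thus left out most such wells of replicate 2 and few of replicate 1.

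The level was spread very differently over the wells. The 20 wells with the highest *Rgs5* level of a plate carried 19.6%, 19.5%, 74.9% and 76.3% of the summed *Rgs5* level of that plate. For *Kcnj8* these shares were 25.4%, 28.6%, 90.6% and 89.5%, and for *Tagln* 34.8%, 37.4%, 58.8% and 58.2%. Pericyte gene signal in replicate 2 was concentrated in few wells, and *Tagln* was the member whose concentration differed least between replicates among these 3. Median levels in replicate 1 were 1712 CPM for *Rgs5*, 92 for *Kcnj8*, 54.0 for *Pdgfrb* and 43.3 for *Acta2*, while in replicate 2 the median of *Rgs5* was 19.3 CPM and that of the other 9 members was 0.

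**Figure D2:**
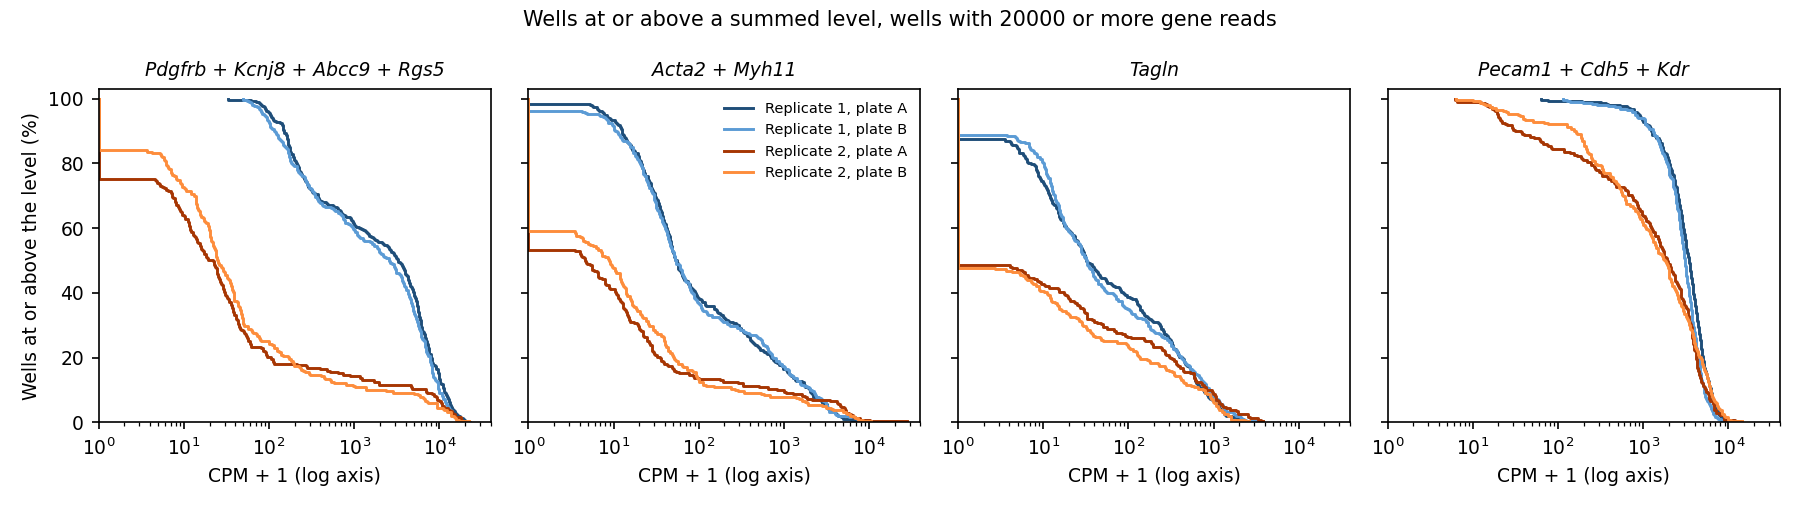
Share of wells (percent) at or above a summed level (CPM + 1, log axis) for the pericyte genes, *Acta2* with *Myh11*, *Tagln* and 3 endothelial genes, in wells with at least 20000 gene reads, 1 line per plate. The plates of a replicate run close together, and the pericyte sum has medians of 3262, 2579, 20.8 and 24.0 CPM in the order of plates 1A, 1B, 2A and 2B.

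Wells were next grouped by the summed level of all 10 members, among those with at least 20000 reads. More than 3000 CPM was held by 204, 196, 34 and 28 wells, or 52.8% of 758 wells in replicate 1 against 13.2% of 470 in replicate 2. Less than 30 CPM was held by 0, 0, 64 and 61 wells, or 26.6% in replicate 2, and the 0 of 758 wells in replicate 1 cannot show a share below about 3 wells, or 0.396%. Between 30 and 300 CPM lay 53, 54, 86 and 109 wells. The lower tail of the members was thus raised in replicate 1, where every well carried some of these transcripts.

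In replicate 1 the mix of the members was nearly the same at low and at high levels apart from *Tagln*. Of the member reads in wells at 30 to 300 CPM, *Rgs5* made 41.5%, *Kcnj8* 15.2%, *Pdgfrb* 7.89%, *Acta2* 12.0% and *Tagln* 10.3%. In wells above 3000 CPM *Rgs5* made 42.2%, *Kcnj8* 16.9%, *Pdgfrb* 10.1%, *Acta2* 9.67% and *Tagln* 3.5%. Wells between 300 and 3000 CPM differed from both, with 24.7% of *Tagln* and 5.50% of *Kcnj8*. In replicate 2, *Tagln* made 15.0% of member reads under 30 CPM, 46.7% at 30 to 300 CPM, 67.2% at 300 to 3000 CPM and 2.49% above 3000 CPM, where *Rgs5* made 39.1%, *Acta2* 15.1% and *Kcnj8* 9.55%. *Tagln* thus made a larger share of member reads at 300 to 3000 CPM than above 3000 CPM, in groups set by a sum that contains it. Its mean level was 234 and 324 CPM in these 2 groups of replicate 1 and 669 and 545 CPM in those of replicate 2, so the small share at the top was not a low level.

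**Figure D3:**
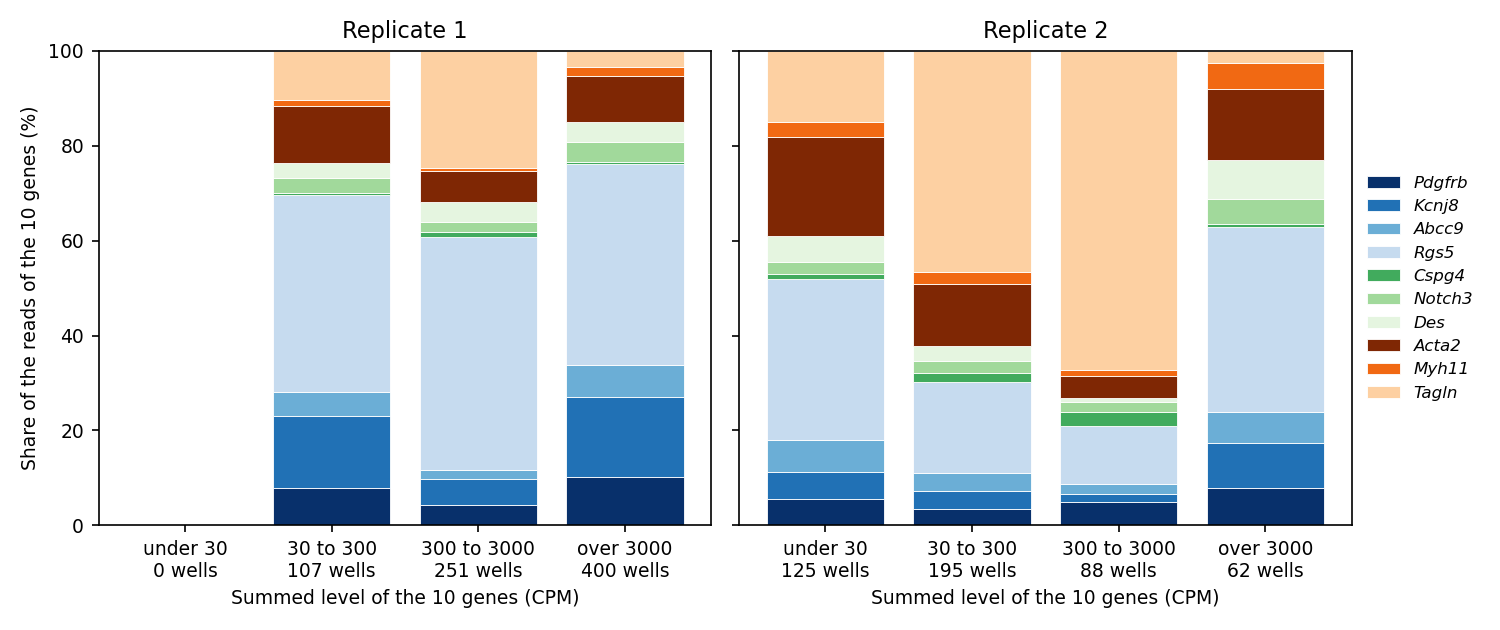
Share of the reads of the 10 genes taken by each gene (percent) in wells grouped by their summed level (CPM), wells with at least 20000 gene reads; the number of wells stands under each bar. In replicate 1 the lowest and highest filled groups are alike apart from *Tagln*, with *Rgs5* at 41.5% and 42.2% and *Tagln* at 10.3% and 3.5%. In replicate 2 the group from 300 to 3000 CPM holds 67.2% *Tagln*.

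Wells chosen for low levels still held each member at a few percent of its mean on most plates. In wells with under 300 CPM of the members (53, 54, 150 and 170 wells), mean levels of single members were 2.58% to 7.71% of the plate mean on 1A, 1.49% to 6.18% on 1B, 0% to 6.59% on 2A and 1.90% to 11.6% on 2B. The median *Rgs5* level there was 92.7, 76.1, 7.75 and 10.8 CPM, and after thinning *Rgs5* was read in 77.4%, 77.8%, 23.3% and 30.6% of these wells. Transcripts of other cell types were found in the same wells, given here without thinning unless stated. *Col1a1*, a fibroblast collagen, was read in 88.7%, 96.3%, 26.0% and 28.8% of them, and after thinning in 30.2%, 33.3%, 7.33% and 13.5%. *Pdgfra*, a fibroblast receptor, was read in 3.77%, 3.70%, 2.67% and 8.24%. Over all 8 fibroblast genes the median share was 52.8%, 55.6%, 19.3% and 27.6%, and over 6 lymphatic genes it was 24.5%, 12.0%, 48.3% and 58.2%. The fibroblast genes thus differed among themselves, and the median of the lymphatic genes was higher in replicate 2. *Ptprc* was read in 3.77%, 0%, 2.00% and 1.76% and the median share over 6 keratinocyte genes was 5.66%, 0%, 2.00% and 0.588%, with *Krt14*, a keratin, at 32.1%, 1.85%, 4.67% and 6.47%. For *Ptprc*, 0 of 54 wells cannot show a share below about 3 wells, or 5.56%. A part of RNA from outside the sorted cell in the low levels was not tested.

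Among wells with high pericyte genes, the share with high endothelial genes lay near that of all wells in replicate 1 and below it in replicate 2. Of wells with at least 1000 CPM of the 4 pericyte genes, 215 of 231 (93.1%), 212 of 226 (93.8%), 7 of 33 (21.2%) and 7 of 27 (25.9%) also held at least 1000 CPM of *Pecam1*, *Cdh5* and *Kdr*. Among all wells of at least 20000 reads this endothelial level was reached by 353 of 379 (93.1%), 356 of 379 (93.9%), 147 of 231 (63.6%) and 146 of 239 (61.1%). Conversely, wells with at least 1000 CPM of the endothelial genes had under 100 CPM of the pericyte genes in 17 of 353 (4.82%), 29 of 356 (8.15%), 136 of 147 (92.5%) and 128 of 146 (87.7%). Wells with high pericyte genes in replicate 2 were mostly low in endothelial genes, and the median endothelial sum of wells with over 3000 CPM of the members was 2831 CPM in replicate 1 and 50.3 CPM in replicate 2. Whether the wells with both sets of genes held more than 1 cell was not tested.

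*Acta2* and *Myh11* were seldom high without a high sum of the pericyte genes, of which *Rgs5* had the highest mean level. Of wells with at least 300 CPM of *Acta2* and *Myh11*, 111 of 111, 109 of 111, 26 of 28 and 19 of 23 also held at least 300 CPM of the pericyte genes, which is 99.1% of 222 wells in replicate 1 (interval 96.8% to 99.9%) and 88.2% of 51 in replicate 2 (76.1% to 95.6%). Among all wells 550 of 758 (72.6%) in replicate 1 and 75 of 470 (16.0%) in replicate 2 held this much of the pericyte genes, so that most wells did so in replicate 1 and few in replicate 2. *Tagln* differed, since *Tagln* of at least 300 CPM came with under 300 CPM of the pericyte genes in 52 of 192 wells of replicate 1 and 62 of 86 of replicate 2. For *Acta2* and *Myh11* the reverse was not so, since pericyte genes of at least 300 CPM came with under 100 CPM of *Acta2* and *Myh11* in 132 of 275 (48.0%), 143 of 275 (52.0%), 12 of 39 (30.8%) and 15 of 36 (41.7%) wells. Wells high in *Acta2* and *Myh11* with a pericyte sum under 300 CPM were thus rare. Wells with both sums high were present on all 4 plates, as were wells with pericyte genes but little *Acta2* and *Myh11*. The latter were not free of other genes. Their median endothelial sum was 3673, 3081, 91.6 and 341 CPM and their mean *Tagln* level 153, 106, 138 and 215 CPM. Their fibroblast genes summed to 1134, 1375, 7290 and 2913 CPM.

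**Figure D4:**
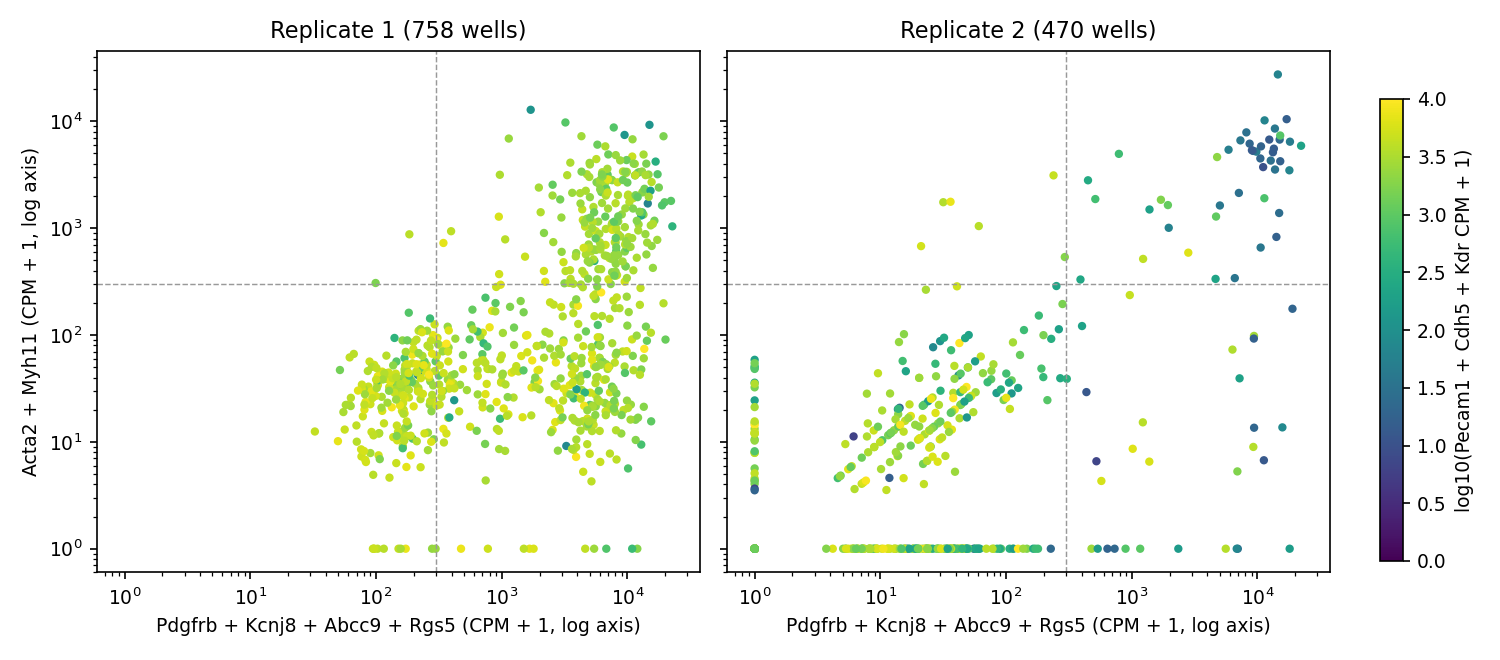
Summed level of *Acta2* and *Myh11* against that of the 4 pericyte genes (CPM + 1, both log axes), 1 point per well with at least 20000 gene reads, coloured by the summed level of 3 endothelial genes; dashed lines mark 300 CPM. The upper left part is nearly empty, with 2 of 222 wells in replicate 1 and 6 of 51 in replicate 2, and the wells at upper right have mostly high endothelial levels in replicate 1 and mostly low ones in replicate 2.

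Pairs of members were followed by asking how often a well with at least 100 CPM of one gene held at least 10 CPM of the other. With *Kcnj8* at 100 CPM, *Pdgfrb* was found in 359 of 370 replicate 1 wells (97.0%) and in 32 of 33 replicate 2 wells (97.0%), against 86.1% and 20.6% of all wells. *Abcc9* accompanied *Kcnj8* in 92.2% and in 28 of 33 wells (84.8%), against 74.5% and 16.8% of all wells. With *Pdgfrb* at 100 CPM, however, *Kcnj8* was found in 99.4% of wells of replicate 1 but in 30 of 55 (54.5%) of replicate 2, against 95.8% and 16.6%. In replicate 2 a well with *Kcnj8* nearly always had *Pdgfrb*, and the converse did not hold. The median over ordered pairs of the 4 pericyte genes was 97.8% in replicate 1 and 79.6% in replicate 2.

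With *Acta2* at 100 CPM, *Rgs5* accompanied it in 100% of wells in replicate 1 and 54 of 56 (96.4%) in replicate 2, against 99.9% and 54.3% of all wells. *Myh11* was found with *Acta2* in 50.6% and in 34 of 56 wells (60.7%), against 30.1% and 15.5%. With *Myh11* at 100 CPM, *Acta2* was found in 92.1% and in 32 of 34 wells (94.1%), against 87.6% and 37.4%, and *Notch3* in 86.0% and in 30 of 34 wells (88.2%), against 60.8% and 14.3%. For *Acta2* in wells with *Myh11*, the share thus lay near that of all wells in replicate 1 and above it in replicate 2.

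*Tagln* stood apart from the other members. With *Tagln* at 100 CPM, *Acta2* was found in 89.6% of wells of replicate 1 and 49 of 117 (41.9%) of replicate 2, against 87.6% and 37.4% of all wells, and *Pdgfrb* in 87.1% and 30 of 117 (25.6%), against 86.1% and 20.6%. At 300 CPM of *Tagln*, *Acta2* was under 100 CPM in 52 of 98, 48 of 94, 37 of 47 and 24 of 39 wells. Of the wells with this much *Tagln*, 94 of 98, 88 of 94, 34 of 47 and 22 of 39 held at least 1000 CPM of the endothelial sum, near the 93.1%, 93.9%, 63.6% and 61.1% of all wells given above. For *Acta2* at 300 CPM the same held for 91 of 99, 90 of 97, 6 of 26 and 5 of 23 wells. In replicate 2 the endothelial sum was thus high in most wells with *Tagln* and in few wells with *Acta2*.

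*Tagln* (chromosome 9, GRCm38 45929619 to 45936058, minus strand) shares exon sequence with *Pcsk7* on the opposite strand, which had 16703 reads, and whether reads were counted by strand was not stated. The level of *Pcsk7*, log2(CPM + 1), correlated with that of *Tagln* at Pearson's r of 0.19, 0.21, 0.09 and 0.21 across the wells of a plate. *Abcc9*, *Notch3* and *Des* overlap antisense genes that were counted at 656, 1105 and 125 reads over all plates. How reads from the shared exons were assigned was not stated.

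Across the wells of a plate (379, 379, 231 and 239 wells, which share library preparation and differ in depth), the pericyte genes correlated with each other at a median Pearson's r of 0.70, 0.67, 0.61 and 0.50. Pericyte genes with *Acta2* or *Myh11* had medians of 0.38, 0.34, 0.49 and 0.51. *Notch3* correlated with the 4 pericyte genes at 0.57 to 0.64 on plates 1A and 1B, below the medians among the pericyte genes there. It did so at 0.55 to 0.67 on plate 2A, around the median, and at 0.55 to 0.62 on plate 2B, above it. *Rgs5* correlated with *Acta2* at 0.47, 0.47, 0.63 and 0.59. *Tagln* with any other member had medians of 0.13, 0.15, 0.10 and 0.12, and *Cspg4* with any other of 0.25, 0.21, 0.17 and 0.15. *Acta2* and *Myh11* correlated at 0.38, 0.37, 0.66 and 0.52, whereas *Acta2* and *Tagln* did so at 0.25, 0.37, 0.21 and 0.18. The channel subunits *Kcnj8* and *Abcc9* had the highest mean over the plates, 0.67.

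**Figure D5:**
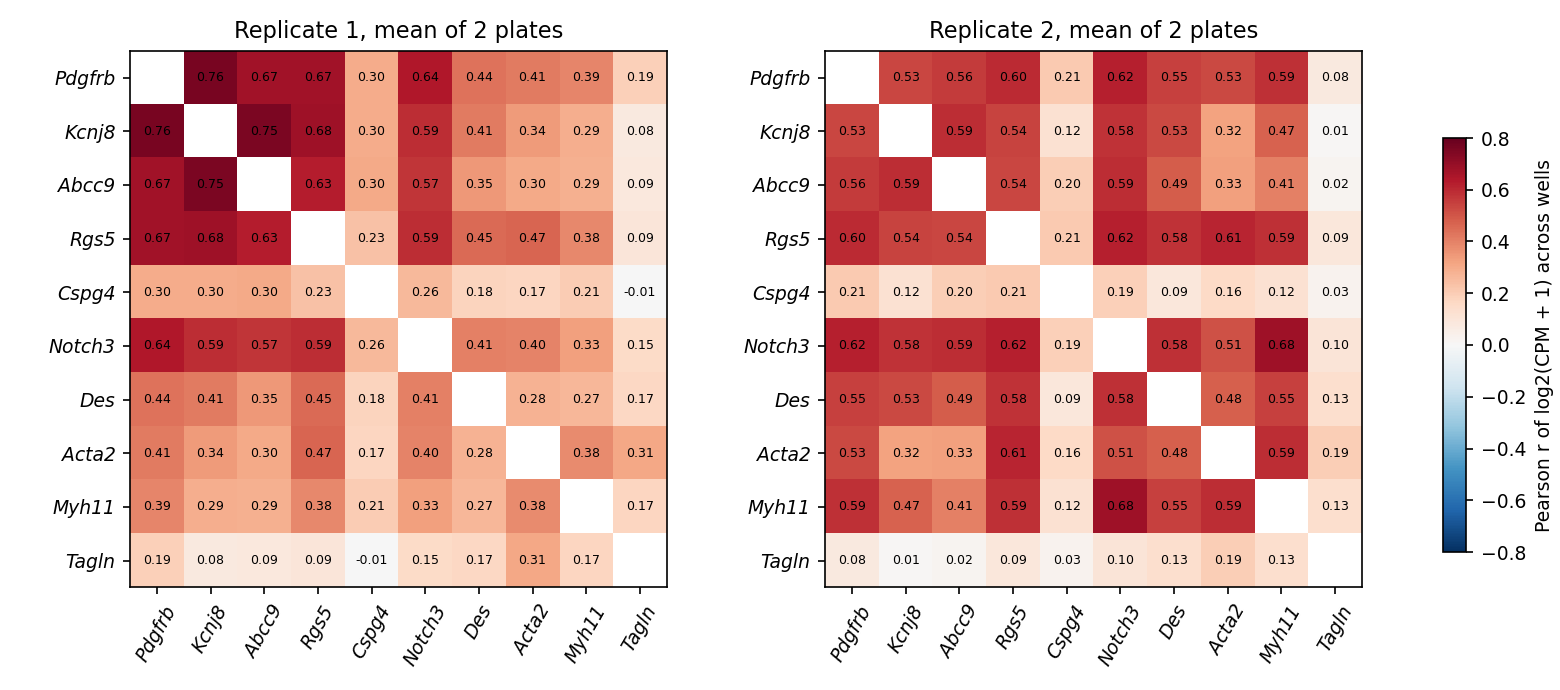
Pearson's r of log2(CPM + 1) between each pair of members across wells with at least 20000 gene reads, averaged over the plates of a replicate. Pairs of the 4 pericyte genes lie from 0.53 to 0.76, and *Tagln* stays at or below 0.31.

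The genes most like the summed pericyte genes among 10825 other genes compared, by the mean of r over the 4 plates, were *Ndufa4l2* (0.72), *Myl9* (0.71), *Cpe* (0.67), *Cox4i2* (0.65), *Serping1* (0.64), *Vtn* (0.63), *Aspn* (0.61), *Ano1* (0.58), *Lgals1* (0.58) and *Atp1b2* (0.58). For the summed smooth muscle genes they were *Myl9* (0.52), *Tpm2* (0.41), *Ndufa4l2* (0.39), *Tpm1* (0.38), *Atp1b2* (0.37), *Cox4i2* (0.37), *Cpe* (0.37), *Vtn* (0.36), *Mylk* (0.36) and *Lgals1* (0.35). *Pecam1* had a mean r of -0.33 with the former sum and of -0.12 with the latter. Both sums thus had *Ndufa4l2*, *Myl9*, *Cpe*, *Cox4i2*, *Vtn*, *Lgals1* and *Atp1b2* among their nearest genes, and the contractile genes *Tpm2*, *Tpm1* and *Mylk* were among the 10 nearest to the smooth muscle sum.

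To compare other genes over replicates, wells with at least 20000 reads were put into 3 classes by the members. Smooth muscle wells held at least 300 CPM of *Acta2*, *Myh11* and *Tagln* together (173, 164, 67 and 48 wells), pericyte wells held at least 300 CPM of the pericyte genes and under 100 CPM of the smooth muscle genes (86, 96, 9 and 10 wells), and mural-low wells held under 100 CPM of each (9, 16, 139 and 140 wells). Because *Tagln* entered the sum, 52, 48, 37 and 24 of the smooth muscle wells had high *Tagln* with low *Acta2*. The classes differed in other cell types as well. The median endothelial sum was 2981, 3636 and 4737 CPM in smooth muscle, pericyte and mural-low wells of replicate 1 and 1471, 154 and 2024 CPM in those of replicate 2, and 8 fibroblast genes summed to 9559 CPM in pericyte wells of plate 2A and 1054 CPM in those of plate 2B. Their part in the differences below was not tested.

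The members set these classes, so their levels in them are a description. *Kcnj8* had 1236 CPM in the summed smooth muscle wells and 942 in the pericyte wells of replicate 1, and 485 and 1206 in those of replicate 2, which is the opposite order. As a mean per well, *Kcnj8* had 385 and 1042 CPM in replicate 2. With *Tagln* left out of the class sum these means were 865 and 883 CPM, and those of replicate 1 were 1665 and 848 CPM. The difference in replicate 2 was then smaller. It kept its direction on plate 2A, at 866 and 980 CPM, and turned on plate 2B, at 864 and 805 CPM. *Notch3* had 354 and 169 CPM in replicate 1 and 369 and 177 CPM in replicate 2, higher in smooth muscle wells both times. *Rgs5* had 3305 and 2515 CPM in replicate 1 and 2594 and 2524 CPM in replicate 2. Mural-low wells still had 46.4 and 9.72 CPM of *Rgs5* and 18.6 and 1.99 CPM of *Kcnj8* in the 2 replicates.

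For each class the reads were added up within a replicate, and the sums of 18389 genes entered edgeR (quasi-likelihood, replicate block, Benjamini-Hochberg adjustment). Between smooth muscle and pericyte wells 0 genes passed an adjusted p of 0.05, or 0%, with 204 genes at an unadjusted p under 0.05, while DESeq2 called 35 genes of 13041, or 0.268%. Between mural wells (the mean of both classes) and mural-low wells edgeR also called 0 genes, or 0%, with 843 at an unadjusted p under 0.05, while DESeq2 called 632 of 14467, or 4.37%. The members that set the classes stayed in the tables tested, and *Acta2*, *Myh11* and *Tagln* were among the 35 genes and all 10 members among the 632, which the class rule fixed. With 2 sums per class, a count of 0 does not show that the classes did not differ.

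The values of the other mural genes are therefore given with the number that differed by 1 or more on the log2 scale in the same direction in both replicates. Mural wells exceeded mural-low wells by that much for 17 of 20 other pericyte genes and 14 of 25 other smooth muscle genes, against 5.20% of all genes tested. *Ndufa4l2* had 453, 300.1 and 10.3 CPM in smooth muscle, pericyte and mural-low wells of replicate 1 and 389, 324 and 9.83 CPM in those of replicate 2, a log2 difference of 5.19 ± 0.36 (SE; edgeR adjusted p 0.0508). *Myl9*, a regulatory light chain of smooth muscle myosin, had 1054, 345 and 15.2 CPM and 1124, 457 and 35.2 CPM, a log2 difference of 4.82 ± 0.35 (SE; edgeR adjusted p 0.0508). *Rgs4*, a relative of *Rgs5*, followed with 5.02 ± 0.43 (SE; edgeR adjusted p 0.0535), and *Heyl*, a Notch target, with 7.91 ± 0.77 (SE; edgeR adjusted p 0.0586). These 4 were higher in both mural classes than in mural-low wells in either replicate and missed the threshold narrowly.

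Of the other pericyte genes, *Mcam*, *Ebf1* and *Anpep* were not among the 17. *Mcam*, an adhesion molecule that endothelial cells express too, had a log2 difference of 0.62 ± 0.22 (SE). By DESeq2, which called 4.37% of all genes, 17 of 20 other pericyte genes, 10 of 25 other smooth muscle genes and 6 of 8 fibroblast genes were called higher in mural wells, and 4 of 6 lymphatic genes and 1 of 8 vein genes were called lower. Fibroblast genes moved with the classes, since 7 of 8 exceeded mural-low wells by 1 or more on the log2 scale in both replicates, and 0 of 15 endothelial genes did. Lower by as much in both replicates were 3 of 6 lymphatic genes, 4 of 8 vein genes and 2 of 9 artery genes, against 3.41% of all genes tested. Higher by as much were 1 of 3 leukocyte genes, *Cd74*, which DESeq2 called too, and 1 of 5 keratinocyte genes. The part of these groups was not tested.

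Between smooth muscle and pericyte wells, 8 of 25 other smooth muscle genes and 3 of 20 other pericyte genes were higher by 1 or more on the log2 scale in both replicates, against 3.15% of all genes tested. *Myl9* differed by 1.4 ± 0.32 (SE), *Tpm1*, a tropomyosin, by 1.77 ± 0.44 (SE), *Nrip2* by 3.83 ± 1.13 (SE) and *Mylk*, the myosin light chain kinase, by 0.79 ± 0.33 (SE), all with an edgeR adjusted p of 1.0. The 4 were higher in smooth muscle wells in both replicates and did not pass the edgeR test, while DESeq2 called *Nrip2* (adjusted p 0.0325), which was 1 of 25 other smooth muscle genes. The vein genes *Ackr1*, *Lrg1*, *Sele* and *Selp*, 4 of 8, were higher in both replicates by that much, and the capillary genes *Car4*, *Rgcc* and *Timp4*, 3 of 7, were lower, against 0.952% of all genes tested. Of other cell types, 2 of 6 lymphatic, 2 of 3 leukocyte and 1 of 8 fibroblast genes were lower and 1 of 9 artery genes was higher by that much in both replicates. DESeq2 called the same 4 vein genes higher, with adjusted p from 5.7e-10 for *Ackr1* to 0.0172 for *Lrg1*, and 0 of 7 capillary genes. With *Tagln* left out of the class sum, a change made after the values were seen, the median log2 difference of the vein genes was -0.21 in place of 2.93.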

How the data were processed

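Smart-seq2 libraries of sorted ear dermal BECs were analysed in 2 replicates of 2 plates. The authors aligned single reads to mm10 with TopHat2 2.1.1, removed duplicates with SAMtools 0.1.18 and deposited raw counts per gene and well from Subread 1.4.6-p5. The release of the annotation and the strand setting are not given in the sources used here. Removal of reads at identical positions limits the counts of short abundant genes. Totals on genes were 74739095, 63091443, 31864976 and 35546726 reads. Spike-in rows stayed out of totals, 0 columns were left unused, and GENCODE vM21 gave a symbol for 46005 of 46517 identifiers. The values are not counts of molecules, so that intervals and floors (3 counts) cover counting error only. Doublets were not called.

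CPM were computed per well from all gene reads, and summed levels add CPM of the listed genes. The raw counts of the wells of a class were added within each replicate, which gave 6 sums of at least 10 wells each. Genes that reached 10 counts in 2 or more sums entered edgeR 4.0.16 (TMM, quasi-likelihood, replicate block, Benjamini-Hochberg at 0.05). The SE printed with an edgeR log2 difference is the size of that difference divided by the square root of its F statistic. Each replicate's 3 class sums were drawn from its own 2 plates, hence the block, and deviations of same-numbered sums from their class means correlated at 0.05, 0.13 and 0.14 over 10204 genes. With this block, P-values set a class difference against how far the class differences disagreed between the 2 replicates, which may be technical. The code was tested on simulated data. DESeq2 1.42.0, limma 3.58.1 on log2 mean CPM with a pseudocount of 1, other normalization, filters, class limits, plates, depth and thinning were alternatives. R 4.3.3, Python 3.11.15, numpy 2.4.6, pandas 2.3.3, scipy 1.17.1 and matplotlib 3.10.9 were used.

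The members and all gene lists were chosen with earlier results of these data known. Named are the members, the 10 genes most like each summed set (among genes read in at least 5% of wells on each plate), list genes past a threshold in the same direction in both replicates, and, where fewer than 4 passed, the 4 other mural genes of smallest p; other names were chosen after their values were seen. The marker genes that checked the sort, *Cnn1*, *Pcsk7* and *Lepr* were added in that way.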

Additional observations from a re-analysis of the deposited data

Results flagged for a closer look

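*Kcnj8* was the member whose difference between smooth muscle and pericyte wells ran in opposite directions in the replicates on every plate. The log2 ratio of its mean CPM per smooth muscle well to that per pericyte well was 0.86 on plate 1A, 0.53 on plate 1B, -1.83 on plate 2A and -0.98 on plate 2B. The difference between the replicates was not tested. The pericyte wells of replicate 2 numbered 9 and 10 per plate, against 86 and 96 in replicate 1, and 37 and 24 of the 67 and 48 smooth muscle wells of replicate 2 held high *Tagln* with low *Acta2*. With *Tagln* left out of the class sum, *Kcnj8* averaged 1665 and 848 CPM in smooth muscle and pericyte wells of replicate 1. The opposite order was then kept on plate 2A, at 866 and 980 CPM, and not on plate 2B, at 864 and 805 CPM.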

How the results depend on the processing

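Between smooth muscle and pericyte wells, the count of 0 genes from edgeR was 35 with DESeq2, 8 without the filter on low counts, 2 with sums per plate and 1 with limma on mean CPM, and 0 under the other 7 settings run. Between mural and mural-low wells the count of 0 was 632 with DESeq2, 164 without the filter, 88 with sums per plate, 58 at a class limit of 1000 CPM, 18 from plate B of each replicate, 84 with limma and 90 with *Tagln* left out of the class sum (chosen after seeing the data). With no replicate block it was 6, and without the block the count between smooth muscle and pericyte wells was 0 (370 genes at an unadjusted p under 0.05), so pairing by replicate changed few calls. The cause was not tested. The median log2 ratio of the members between replicates, 1.56, was 1.15 in wells thinned to 20000 reads, 0.98 from summed reads, 3.95 without the 20 highest wells per plate and 3.53 in endothelial wells (chosen after seeing the data); 8 to 10 members had plates apart.

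Directions turned for lists between smooth muscle and pericyte wells. The endothelial median of 0.17 was -0.047 without the block, -0.12 at a limit of 1000 CPM, -0.15 from plate B, -0.80 without *Tagln* and between -0.33 and 0.80 with 1 replicate left out. The vein median turned to -0.21 without *Tagln*. The fibroblast median of -0.83 was 0.61 from plate B and between -2.53 and 0.018 with 1 replicate left out, and the lymphatic median of -2.21 was 0.79 at limits of 100 and 30 CPM and 0.58 at 1000 CPM. *Myh11*, at -0.15 between replicates, had 2.08 without the 20 highest wells and 2.13 in endothelial wells.

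Plate A alone left fewer than 10 wells in a class, and limits of 100 and 30 CPM left no mural-low wells in replicate 1, so the fits for plate A and, at these limits, the comparison of mural with mural-low wells could not be made. With 1 replicate left out no spread remains, and values without a test were given. The pericyte class of replicate 2 held 19 wells, which limits comparisons with that class.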

Other observations

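Wells with high *Tagln* but low pericyte genes, which the class rule counts as smooth muscle wells, were compared with other wells low in pericyte genes, a comparison chosen after the values had been seen and given without a test. Wells with at least 300 CPM of *Tagln* and under 300 CPM of the pericyte genes numbered 26, 26, 37 and 25, and those with under 100 CPM of *Tagln* numbered 68, 71, 146 and 164. The 8 vein genes summed to 3289, 3706, 3822 and 2256 CPM in the former and to 1507, 1478, 2285 and 1271 CPM in the latter. The 7 capillary genes summed to 5715, 5194, 1527 and 2322 CPM against 6785, 8771, 1199 and 1033 CPM, lower in replicate 1 and higher in replicate 2, and the 9 artery genes to 739, 1013, 823 and 911 CPM against 1417, 1499, 1230 and 909 CPM. *Plvap*, a component of the diaphragms of fenestrae and caveolae, averaged 3981, 4606, 3772 and 2532 CPM against 2434, 2410, 1787 and 1489 CPM. *Lepr*, the leptin receptor, averaged 562, 709, 672 and 572 CPM against 248, 123, 246 and 230.1 CPM, and was the gene with the highest mean r with *Tagln* over the plates, 0.28. The vein sum, *Plvap* and *Lepr* were higher with *Tagln* on each plate. So were *Pecam1*, at 3641, 3263, 2491 and 2656 CPM against 2721, 2560, 1804 and 1650 CPM, and the gene reads per spike-in read, at 424, 496, 147 and 93.6 against 309, 326, 64.8 and 45.6, and their part in the differences was not tested.

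The 6 lymphatic genes summed to 12.3, 27.7, 109 and 59.5 CPM in wells with high *Tagln* and to 645, 246, 3261 and 3641 CPM in those with little. *Acta2* averaged 27.6, 28.4, 59.7 and 225 CPM in the former and 27.9, 50.3, 13.5 and 20.9 CPM in the latter, higher on the plates of replicate 2 only. *Pcsk7*, whose exons overlap *Tagln*, averaged 148, 132, 83.2 and 37.6 CPM against 71.5, 86.5, 59.3 and 36.9 CPM, and its part in the *Tagln* level was not tested.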
